A study of Homo sapiens with 10 samples.

Results

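A pair of 1 Mb stretches of chromosome 1 were examined for H3K27ac, the acetylation of histone H3 at lysine 27 that marks active promoters and enhancers. On build hg19 they span chromosome 1 from 8000000 to 9000000, which holds ERRFI1 and RERE, and from 20000000 to 21000000, which holds CAMK2N1. All peak windows of the deposited count table that start within these limits were taken. This gave 70 of 42067 windows, 41 in the RERE neighbourhood and 29 in the CAMK2N1 neighbourhood. All 70 passed the filter on low counts. Within each neighbourhood the windows are numbered by position, starting at 1. The neighbourhoods were chosen by their loss of H3K27ac after treatment in these same libraries. Changes against the solvent control are therefore given as descriptions and carry no weight as tests.

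The cells were Rh30, an established human line of alveolar rhabdomyosarcoma, a childhood muscle-lineage tumour. They carried PAX3-FOXO1, the fusion transcription factor that drives this tumour, joined to FKBP, a tag that lets the ligand dTAG47 send the protein for degradation. The groups were DMSO, the solvent alone, and 500 nM dTAG47 for 2 h, 4 h and 24 h, with 2 H3K27ac libraries each, called A and B as in the table. All groups carry the tagged fusion. The labels give no time for DMSO, so time in culture and time of treatment cannot be told apart, and they do not say whether the cells are 1 clone. Nothing states that the libraries came from separate cultures, so their spread may be technical. Total counts in peaks were between 3540104 and 5001652 per library. The count table names no genes, so muscle or tumour markers could not be read from it.

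ERRFI1, also called MIG6, is a feedback inhibitor that binds the kinase domains of the EGF receptor family. RERE, an atrophin-family nuclear protein, acts as a transcriptional co-regulator and takes part in retinoic acid signalling during development. CAMK2N1 is a small protein that inhibits the calcium/calmodulin-dependent kinase CaMKII. Active enhancers can lie far from the promoter they act on, and H3K27ac alone does not show which gene an enhancer serves. In the RefSeq gene table, SLC45A1 is the protein-coding gene listed between ERRFI1 and RERE, and ENO1, which encodes the glycolytic enzyme enolase, follows RERE. VWA5B1 precedes CAMK2N1 and MUL1, a mitochondrial ubiquitin ligase, follows it. That table is on GRCh38, so windows were placed only against approximate hg19 positions of 8080000 for ERRFI1, 8412000 to 8878000 for RERE and 20810000 for CAMK2N1.

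Of the 3 genes, 1 was matched in the RefSeq promoter table (GRCh38.p14). Its promoter is shown because an acetylated window that kept most of its level lay near the gene. The 250 bases before the ERRFI1 start, chr1:8026310-8026559 on the minus strand, read 5′ to 3′ with the letters of CCAAT (in either orientation) and GGGCGG in capitals:
ERRFI1: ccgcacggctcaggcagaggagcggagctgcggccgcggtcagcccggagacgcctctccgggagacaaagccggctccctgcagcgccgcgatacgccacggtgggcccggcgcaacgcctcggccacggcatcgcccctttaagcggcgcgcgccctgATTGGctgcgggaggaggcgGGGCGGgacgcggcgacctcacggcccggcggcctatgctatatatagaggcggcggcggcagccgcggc
The stretch held 39 CG dinucleotides and 75.2% G or C, against medians of 11 and 58% over the 35116 promoters in the table. On either strand it held 1 copy of CCAAT, the letters bound by the factor NF-Y, which 32.0% of all promoters hold over the same length. It held 1 copy of GGGCGG, the core of the motif bound by SP1, which 42.6% hold. It also held 1 copy of TCACG, part of the motif bound by the PAX3 paired domain, which 19.8% hold. RERE and CAMK2N1 had no entry.

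The windows at the genes themselves kept most of their acetylation, and the larger losses lay away from them. RERE window 3 (8086118 to 8086518, about 6.32 kb from the ERRFI1 position) had 102 and 98.6 CPM in the DMSO libraries A and B, 89.2 and 92.4 at 2 h, 82.3 and 91.3 at 4 h, then 89.3 and 85.3 at 24 h. CPM are read counts scaled to a library total of 1000000 counts in peaks, with TMM scaling between libraries. All treated libraries of this window lay below both DMSO libraries, and its log2 change at 24 h was -0.20 (SE 0.08), which did not reach the call.

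RERE window 36 (8877149 to 8877549) lay about 0.651 kb from the high end of RERE, where this gene, read toward lower coordinates, begins. It had 71.5 and 70.2 CPM in DMSO, 76.0 and 77.4 at 2 h, 70.9 and 71.7 at 4 h, then 72.9 and 81.9 at 24 h. Both 24 h libraries were above both DMSO libraries by a small margin, with a log2 change of 0.12 (SE 0.09) and no call. CAMK2N1 window 21 (20812123 to 20812523, about 2.32 kb from the CAMK2N1 position) had 48.1 and 40.6 CPM in DMSO, 42.7 and 40.8 at 2 h, 38.4 and 39.5 at 4 h, then 38.8 and 34.6 at 24 h. The 24 h libraries were below both DMSO libraries, and the log2 change of -0.27 (SE 0.12) was not called.

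**Figure D1:**
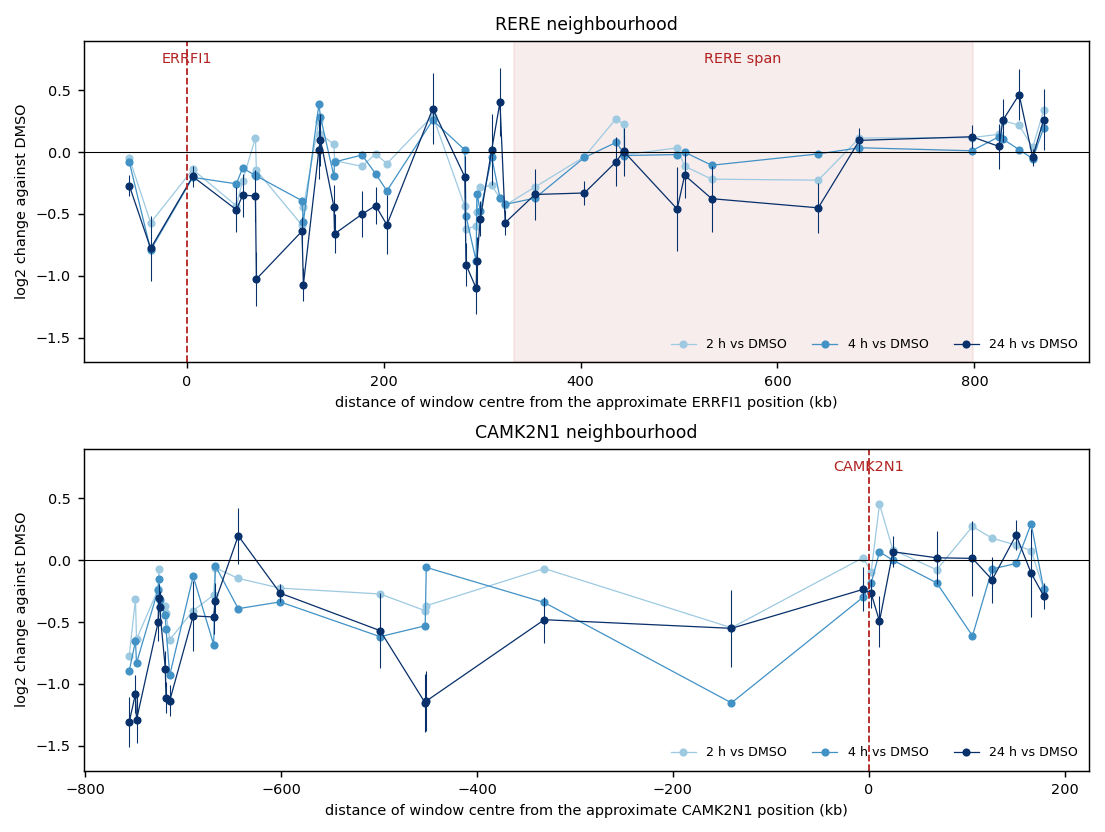
Log2 change of H3K27ac against DMSO (vertical axis) for each window by its distance in kb from the approximate ERRFI1 or CAMK2N1 position (horizontal axis), at 2 h, 4 h and 24 h of dTAG47. Bars are SE of the 24 h change, the shaded span is RERE and dashed lines are gene positions; the lowest 24 h values lie between ERRFI1 and RERE and more than 400 kb below CAMK2N1.

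At 24 h, 24 of the 70 windows were called lower and 0 higher (edgeR quasi-likelihood test, adjusted p under 0.05 over all 41791 tested windows). The share called lower was 29.3% in the RERE neighbourhood, with 12 of 41 windows, and 41.4% in the CAMK2N1 neighbourhood, with 12 of 29. Over all tested windows it was 4.88%, and 3.46% were called higher. Nothing is read from this difference, because the losses led to the choice. At 2 h, 8 of the 70 were called lower (1.03% of all windows), and at 4 h 10 were (1.67%). These counts were fragile. Leaving out 1 library moved the 4 RERE windows at 2 h to between 1 and 2 and the 4 CAMK2N1 windows to between 0 (without DMSO library B) and 2. It moved the 3 RERE windows at 4 h to 1 and the 7 CAMK2N1 windows to as few as 3 (leaving out library B of DMSO or of 4 h), and DESeq2 called 0 at 2 h and 1 at 4 h. All 8 and all 10 were among the 24, in comparisons that share the DMSO libraries. This overlap was not counted over all windows. No member was called higher at 2 h or 4 h, where 0.194% and 0.567% of all windows were, and DESeq2 called 0 higher at any of the 3 times. At an unadjusted p under 0.05 in edgeR, 1, 0 and 1 members were higher at 2 h, 4 h and 24 h. Unadjusted calls, here and below, were not counted over all windows, so nothing is read from their number. The median log2 change at 24 h was -0.34 in the RERE neighbourhood and -0.45 in the CAMK2N1 neighbourhood, against 0.00 over all windows. Both 24 h libraries were below both DMSO libraries in 47 of the 70 windows and above them in 7, against 25.1% and 25% of all windows. Leaving out DMSO library A left 6 lower calls in the RERE neighbourhood at 24 h, and DESeq2 called 4 there and 6 in the CAMK2N1 neighbourhood. Among the windows named by rule, the 24 h calls of RERE windows 1, 13, 21, 22 and 27 and CAMK2N1 windows 11 and 14 were lost without DMSO library A. CAMK2N1 window 11 was also lost without each of the other 3 libraries involved.

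Within the RERE neighbourhood the calls were unevenly placed. Below the RERE span, between it and ERRFI1 or past ERRFI1, 11 of 25 windows were called lower at 24 h, with a median log2 change of -0.47. Inside the RERE span 1 of 11 was, with a median of -0.19, and above it 0 of 5, with a median of 0.26. The call inside RERE was window 27 (8483756 to 8484156), with 66.3 and 67.0 CPM in DMSO, 68.0 and 62.5 at 2 h, 64.3 and 65.0 at 4 h, then 55.7 and 50.05 at 24 h. The 2 h and 4 h libraries stayed close to DMSO and the 24 h libraries were lower, by a log2 change of -0.33 (SE 0.10). This call was lost without DMSO library A (adjusted p = 0.118), DMSO library B (0.146) or 24 h library B (0.224). The other 10 windows inside RERE ranged from -0.46 to 0.12.

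RERE windows 1 and 2, 58.1 and 36.4 kb below the ERRFI1 position, had log2 changes of -0.27 and -0.78 at 24 h and were called. Window 1 was not called without DMSO library A or 24 h library A. The call of window 2 was lost without DMSO library A, DMSO library B or 24 h library B.

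Between ERRFI1 and RERE the lower windows came mostly in close groups. RERE window 9 (8198476 to 8198876, 119 kb above ERRFI1) had 45.5 and 48.9 CPM in DMSO, 39.4 and 30.9 at 2 h, 30.5 and 33.3 at 4 h, then 20.998 and 24.1 at 24 h. Every treated library was below both DMSO libraries, and the 24 h level was 47.6% of DMSO (log2 change -1.07, SE 0.13). Its neighbour, window 8 (8197049 to 8197449), had 51.0 and 49.7 CPM in DMSO, 33.0 and 33.7 at 2 h, 37.1 and 39.5 at 4 h, then 31.9 and 32.8 at 24 h. Here the 2 h level was already about as low as the 24 h level, with log2 changes of -0.59, -0.39 and -0.64 at the 3 times.

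Window 7 (8150749 to 8151149) showed another course. It had 15.7 and 17.6 CPM in DMSO, 13.5 and 16.2 at 2 h, 14.2 and 14.9 at 4 h, then 8.91 and 7.28 at 24 h. The 2 h libraries overlapped DMSO, and both 4 h libraries lay slightly below it, at 87.5% of the DMSO level. The drop to 49.1% of the DMSO level was present only in the 24 h libraries (log2 change -1.03, SE 0.22).

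Further toward RERE, 8 windows formed the widest stitched region of the 2 neighbourhoods, 8362348 to 8403757, 41.4 kb long, when nearby windows were joined as for super-enhancers. Of its windows, 19, 20, 21, 22 and 25 were called lower at 24 h. Window 20 (8373853 to 8374253) had 20.2 and 16.2 CPM in DMSO, 9.91 and 13.7 at 2 h, 11.2 and 8.69 at 4 h, then 8.52 and 8.42 at 24 h (log2 change at 24 h -1.10, SE 0.21). Window 19 (8363554 to 8363954) had 23.3 and 27.3 CPM in DMSO, 16.5 and 16.4 at 2 h, 16.9 and 18.4 at 4 h, then 13.5 and 13.4 at 24 h. In both windows every treated library lay below DMSO.

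Window 25 (8403357 to 8403757), about 8.44 kb below the low end of RERE, was the strongest of the group. It had 74.0 and 76.1 CPM in DMSO, 53.4 and 57.6 at 2 h, 55.6 and 56.3 at 4 h, then 48.5 and 52.8 at 24 h. Log2 changes were -0.43, -0.42 and -0.57 (SE 0.10 at each time), so most of its difference was present at 2 h. Window 24 (8398031 to 8398431), in the same region and singled out after its values were seen, had 6.83 and 5.97 CPM in DMSO, 6.05 and 4.05 at 2 h, 4.91 and 4.96 at 4 h, then 8.52 and 8.42 at 24 h. Its 24 h libraries were above DMSO, with a log2 change of 0.40 (SE 0.27) and no call.

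Above RERE, the windows were level or slightly higher. Window 40 (8938874 to 8939274) had the highest level of the neighbourhood, 171 and 166 CPM in DMSO, 161 and 183 at 2 h, 163 and 163 at 4 h, then 161 and 167 at 24 h. Its 24 h libraries overlapped DMSO, with a log2 change of -0.04 (SE 0.07). Window 39 (8925136 to 8925536) had the largest upward change of the neighbourhood, with 17.2 and 15.2 CPM at 24 h, against 13.1 and 10.5 CPM in DMSO (log2 change 0.46, SE 0.20, not called).

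**Figure D2:**
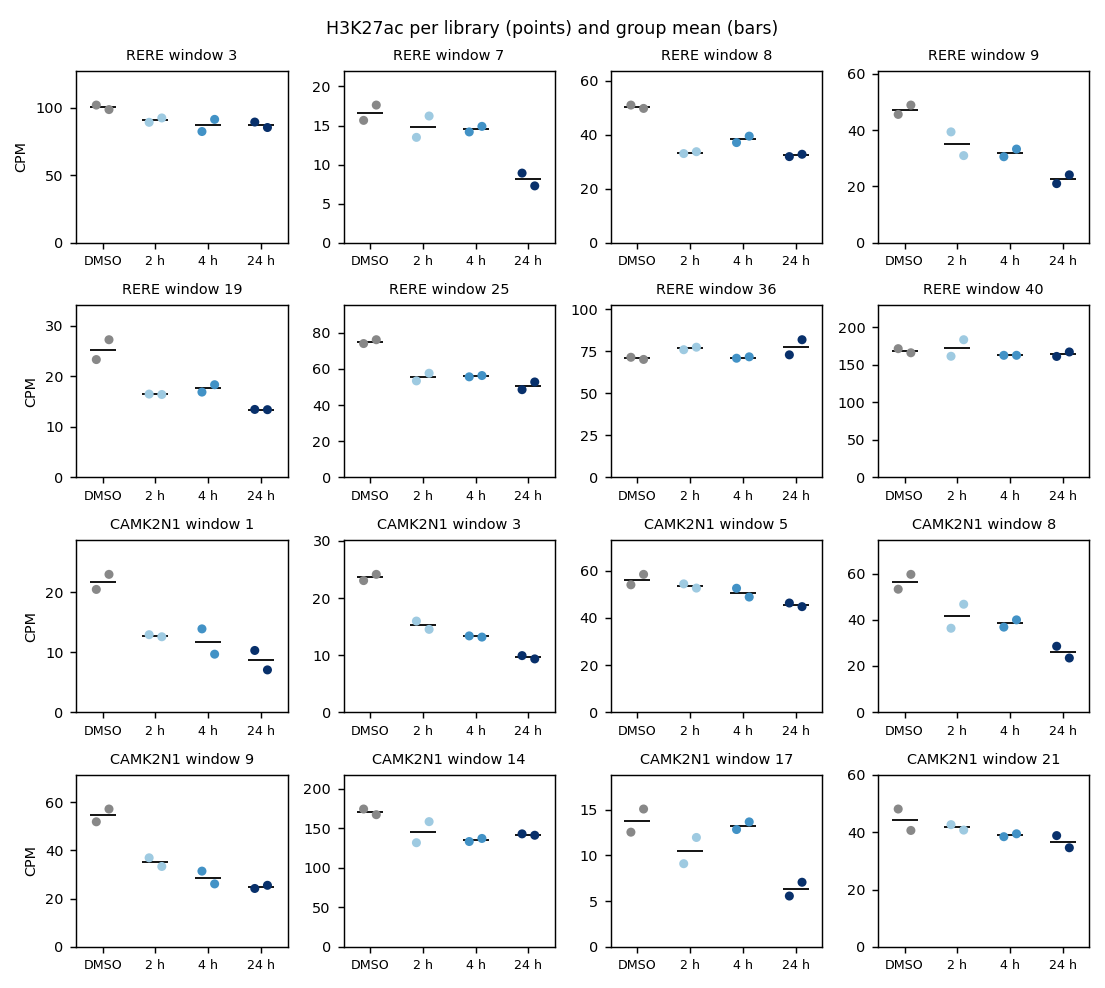
H3K27ac in CPM (vertical axes, from 0) in each library of DMSO, 2 h, 4 h and 24 h of dTAG47 for 16 windows; points are libraries, bars group means. RERE windows 36 and 40 change little. RERE window 3 and CAMK2N1 window 21 are somewhat lower at 24 h (log2 changes -0.20 and -0.27, not called). RERE window 7 has its main drop at 24 h and RERE window 8 is low at all 3 times.

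The CAMK2N1 neighbourhood held its larger losses far below the gene. The first 9 windows, 20055003 to 20096695, lay between 755 kb and 714 kb below the CAMK2N1 position, and 8 of them were called lower at 24 h. CAMK2N1 window 1 (20055003 to 20055403) had 20.5 and 23.0 CPM in DMSO, 12.9 and 12.6 at 2 h, 13.9 and 9.68 at 4 h, then 10.3 and 7.05 at 24 h. This was the largest drop among the 70 windows, to 40.5% of DMSO (log2 change at 24 h -1.31, SE 0.20). Window 3 (20062387 to 20062787) had 23.1 and 24.1 CPM in DMSO, 15.96 and 14.5 at 2 h, 13.4 and 13.2 at 4 h, then 9.90 and 9.33 at 24 h. In both windows each group's mean was below that of the time before. Both were called lower at all 3 times, but not without DMSO library A, DMSO library B, either 2 h library or 4 h library B, nor in DESeq2.

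CAMK2N1 window 9 (20096295 to 20096695) had 51.8 and 57.1 CPM in DMSO, 36.9 and 33.3 at 2 h, 31.4 and 26.1 at 4 h, then 24.2 and 25.5 at 24 h. Its log2 changes were -0.64, -0.93 and -1.13 (SE 0.12, 0.13 and 0.12). Window 8 (20092497 to 20092897) had 53.2 and 59.7 CPM in DMSO, 36.3 and 46.7 at 2 h, 36.8 and 39.96 at 4 h, then 28.5 and 23.4 at 24 h. Windows 8 and 9 reached 46.3% and 45.5% of DMSO at 24 h. They were called lower at all 3 times, but neither was without DMSO library B or in DESeq2, nor was window 8 without DMSO library A or 2 h library A, nor window 9 without 2 h library B.

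A trio of windows between these changed less. CAMK2N1 window 5 (20085091 to 20085491), singled out after its values were seen, had 54.1 and 58.5 CPM in DMSO, 54.5 and 52.7 at 2 h, 52.6 and 48.9 at 4 h, then 46.4 and 44.8 at 24 h. Its DMSO level was close to those of windows 8 and 9, but its log2 change at 24 h was -0.30 (SE 0.11) and was not called. Windows 4 and 6 on either side had log2 changes of -0.50 and -0.38 at 24 h.

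Another group lay about 453 kb below CAMK2N1. Window 16 (20356974 to 20357374) had 13.1 and 16.2 CPM in DMSO, 8.26 and 13.2 at 2 h, 10.9 and 9.43 at 4 h, then 5.94 and 7.28 at 24 h. Window 17 (20358101 to 20358501) had 12.53 and 15.1 CPM in DMSO, 9.08 and 11.9 at 2 h, 12.8 and 13.6 at 4 h, then 5.55 and 7.05 at 24 h. Both were called lower at 24 h alone, at 45.0% and 45.4% of DMSO. The 4 h libraries of window 17 overlapped DMSO.

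Window 14 (20208912 to 20209312) had the highest level of the CAMK2N1 neighbourhood, 175 and 167 CPM in DMSO, 132 and 159 at 2 h, 133 and 137 at 4 h, then 143 and 141 at 24 h. It was called lower at 4 h and 24 h, but its log2 change at 24 h was only -0.27 (SE 0.07). The 24 h call was lost without DMSO library A (adjusted p = 0.140) or 24 h library B (0.0607). From window 18 upward, toward and past CAMK2N1, 0 of 12 windows were called at any time against DMSO. Stitched together, windows 20 to 22 (20803846 to 20821006) span the CAMK2N1 position. As 1 region they were called lower at 24 h against DMSO (log2 change -0.30, SE 0.09) and against 2 h (-0.36, SE 0.09). These calls were not repeated with single libraries left out. Window 27 (20960012 to 20960412) had the largest upward change of this neighbourhood, with 40.6 and 42.3 CPM at 24 h, against 36.4 and 35.5 in DMSO (log2 change 0.20, SE 0.12, not called).

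**Figure D3:**
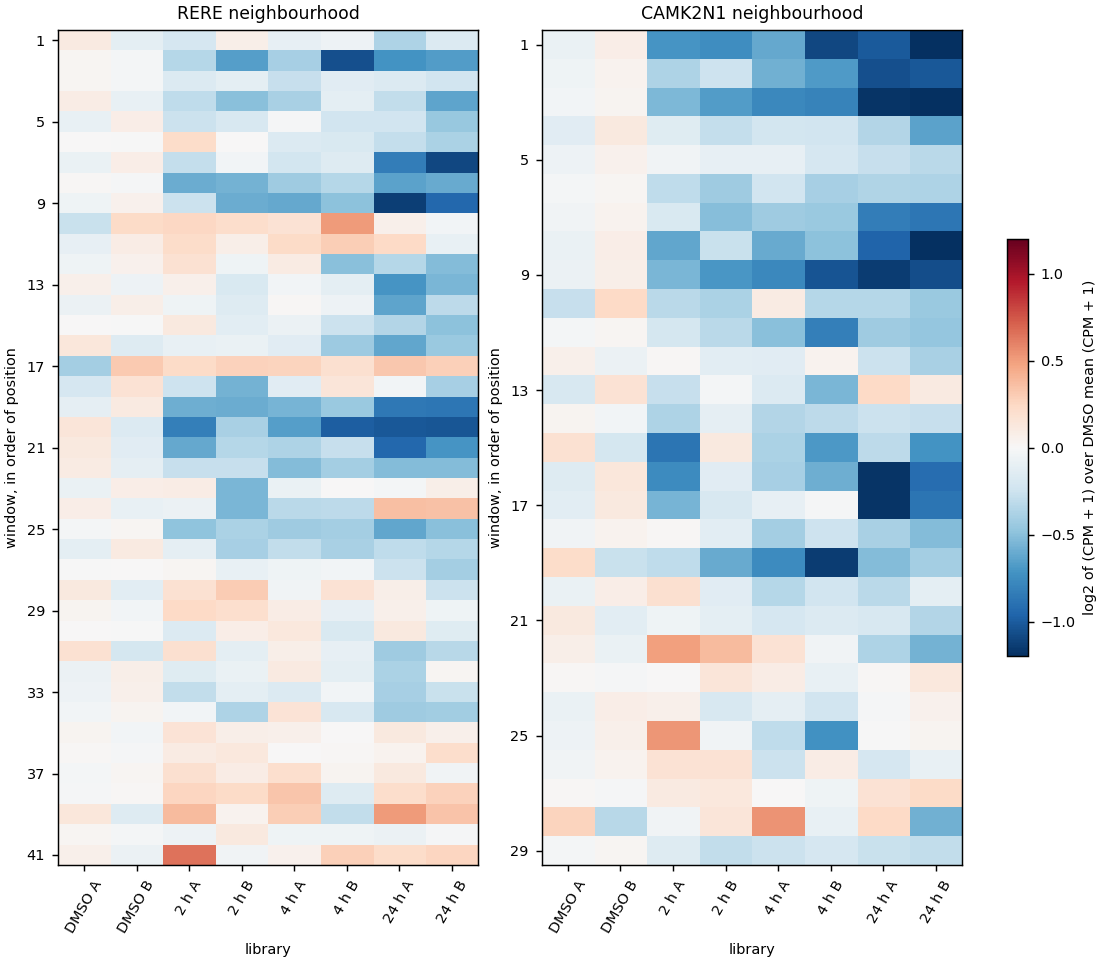
Each row is a window in order of position and each column a library; colour is log2 of CPM + 1 over the DMSO mean + 1, from blue (lower) to red (higher). Blue rows cluster among windows 7 to 9, 19 to 22 and 25 of the RERE neighbourhood and windows 1 to 9 and 16 to 17 of the CAMK2N1 neighbourhood.

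Of the 24 windows called lower at 24 h, 6 were called at all 3 times, RERE windows 9 and 25 and CAMK2N1 windows 1, 3, 8 and 9. Without DMSO library A, 1 of the 6 was still called at all 3 times, CAMK2N1 window 9, and without DMSO library B, or in DESeq2, 0 were. Without 2 h library A or 2 h library B, 2 of the 6 were, 1 in each neighbourhood. Without 4 h library A both RERE windows dropped out, and without 4 h library B RERE window 25 and CAMK2N1 windows 1 and 3 did. In turn, 12 were called at 24 h alone, 7 of them in the RERE neighbourhood. Neither pattern was counted over all windows, so neither is read as particular to the members. A call at 24 h alone does not show a later start. The treated groups were also compared with each other, without DMSO. These comparisons reuse the low 24 h libraries that led to the choice, so their p-values describe the members and are no independent test of when the loss began.

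Between 24 h and 4 h, 5 of the 70 windows were called lower and 0 higher in edgeR, against 0.68% lower and 0.438% higher over all windows. Before adjustment, p was under 0.05 for 17 lower and 3 higher members, and DESeq2 called 0. CAMK2N1 window 17 averaged 6.30 ± 1.06 CPM at 24 h and 13.2 ± 0.59 CPM at 4 h (SD, n = 2 each; log2 change -1.08, SE 0.24, edgeR adjusted p = 0.0048). CAMK2N1 window 8 averaged 26.0 ± 3.6 CPM at 24 h and 38.4 ± 2.2 CPM at 4 h (log2 change -0.56, edgeR adjusted p = 0.00939). RERE windows 7, 13 and 9 were lower at 24 h than at 4 h by log2 changes of -0.83, -0.58 and -0.51 (edgeR adjusted p = 0.0244, 0.0297 and 0.0429). In all 5, both 24 h libraries were below both 4 h libraries. The 3 RERE calls were lost without any 1 of the 4 libraries involved, with adjusted p between 0.0878 and 0.366. The CAMK2N1 window 17 call was lost without 4 h library B (0.110) or 24 h library A (0.172), and that of window 8 without 4 h library B (0.205) or 24 h library B (0.223).

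Between 24 h and 2 h, 10 windows were called lower and 0 higher in edgeR, against 2.49% and 1.69% over all windows. Before adjustment, p was under 0.05 for 23 lower members and 1 higher member, and DESeq2 called 0. They were the same 5 windows and CAMK2N1 windows 2, 3, 7, 9 and 22. Window 8 had a log2 change of -0.69 (edgeR adjusted p = 8.32e-05) and window 2 of -0.77 (0.000525). Without 2 h library B both lost their calls (0.132 and 0.0554). Of the 10 calls, 6 were lost without 2 h library B or 24 h library A, and 5 without 2 h library A or 24 h library B. Between 4 h and 2 h, edgeR called 0 of all windows, DESeq2 called 0 members, and 5 members were lower and 1 higher at an edgeR p under 0.05 before adjustment.

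CAMK2N1 window 22 (20820606 to 20821006), about 10.8 kb from the CAMK2N1 position and singled out after its values were seen, took a course of its own. It had 16.2 and 14.5 CPM in DMSO, 22.0 and 20.3 at 2 h, 17.5 and 14.9 at 4 h, then 11.7 and 10.0 at 24 h. Both 2 h libraries were above DMSO and both 24 h libraries below it, though neither difference from DMSO was called. Directly compared, 24 h was lower than 2 h by a log2 change of -0.95 (SE 0.18, edgeR adjusted p = 0.0002). This call held without each of the 4 libraries in turn, but not in DESeq2 (adjusted p = 0.114).

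Neighbouring windows were compared through the ratio of their counts within each library, which no scaling between libraries affects. There were 13 adjacent pairs with starts 2 kb or less apart, and the ratios were not tested. The 3 pairs named here were singled out after their values were seen. RERE window 7 over window 6, 983 bp away, had ratios of 1.10 and 1.24 in DMSO, 0.803 and 1.13 at 2 h, 1.13 and 1.196 at 4 h, then 0.776 and 0.681 at 24 h. RERE window 9 over window 8, 1427 bp away, had 0.894 and 0.983 in DMSO, 1.19 and 0.918 at 2 h, 0.824 and 0.843 at 4 h, then 0.658 and 0.736 at 24 h. RERE window 19 over window 18, 1206 bp away, had 1.28 and 1.14 in DMSO, 0.938 and 1.18 at 2 h, 0.886 and 0.787 at 4 h, then 0.654 and 0.855 at 24 h. In each of these pairs both 24 h ratios were below both DMSO ratios. Over all 13 pairs, the 24 h ratios were both below DMSO in 6, both above in 2 and overlapped DMSO in 5. Outside the 3 named pairs, the log2 changes of neighbours at 24 h differed by at most 0.23.

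Summed over each neighbourhood, the losses were moderate. The 29 CAMK2N1 windows together had 901 and 922 CPM in DMSO, 794 and 795 at 2 h, 746 and 712 at 4 h, then 692 and 671 at 24 h. The log2 change was -0.20, -0.32 and -0.42 (SE 0.03 each) at the 3 times. Among 1488 such 1 Mb bins of the genome with 10 or more tested windows, the sum ranked 40, 4 and 8 from the lowest at these times. The 41 RERE windows together had 1269 and 1245 CPM in DMSO, 1197 and 1180 at 2 h, 1170 and 1139 at 4 h, then 1065 and 1068 at 24 h. Its log2 changes of -0.08, -0.12 and -0.24 (SE 0.02 each) ranked 205, 121 and 36 from the lowest. Both sums were called lower at every time, as were 4.23%, 4.64% and 10.6% of all 2650 tested bins; the RERE call at 2 h was lost without DMSO library A, DMSO library B or 2 h library B.

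Between treated groups, the RERE sum was lower at 24 h than at 4 h by a log2 change of -0.11 (SE 0.02, edgeR adjusted p = 0.00125 over bins), where 2.23% of bins were called lower. Without 4 h library A or 24 h library A this was not called (0.0863 and 0.0606). The CAMK2N1 sum had a log2 change of -0.09 (SE 0.03, adjusted p = 0.0548) between these groups, and of -0.22 between 24 h and 2 h (adjusted p = 2.14e-07), where 6.3% of bins were called lower.

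**Figure D4:**
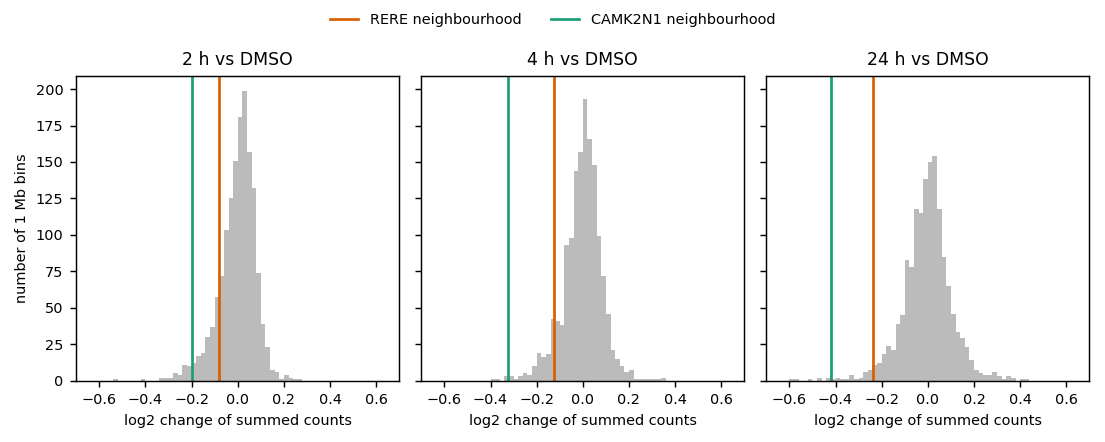
Number of 1 Mb bins (vertical axis) by log2 change of summed H3K27ac counts against DMSO (horizontal axis) at 2 h, 4 h and 24 h, over 1488 bins. Coloured lines mark the RERE neighbourhood (-0.24 at 24 h) and the CAMK2N1 neighbourhood (-0.42 at 24 h), both left of the centre at each time.

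In level, the members were ordinary peaks. Their median mean level over all libraries was 17.01 CPM, against 13.7 CPM over all tested windows, and ranged from 4.73 to 167 CPM. The windows are 400 bases wide, so levels can be compared between them. The median spacing between neighbouring starts was 13.8 kb, and the widest gap was 191 kb, below CAMK2N1. The 70 windows formed 40 stitched regions, of which 15 were called lower at 24 h (5.55% of all regions tested).

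For likeness, the 8 libraries of the window with the smallest p at 24 h in each neighbourhood were correlated with those of 20851 windows outside both stretches, at or above the median level. RERE window 9 was most like windows on chromosome 17 at 77042494 (Pearson r = 0.990 over 8 libraries), chromosome 2 at 67624532 (0.983) and chromosome 1 at 47406904 (0.982). CAMK2N1 window 9 was most like windows on chromosome 1 at 59881093 (0.986), chromosome 17 at 47269516 (0.982) and chromosome 16 at 89608661 (0.980). These were the highest of many correlations over few libraries and are descriptions only.

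At the limits of the stretches, the nearest windows outside were 7843520, 9074626, 19991316 and 21009210, with log2 changes at 24 h of 0.43, -0.37, -0.30 and 0.23. The nearest inside were RERE windows 1 and 41 and CAMK2N1 windows 1 and 29, with -0.27, 0.26, -1.31 and -0.29.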

How the data were processed

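The authors deposited raw read counts, per the file headers and the values, in 42067 peak windows for 8 H3K27ac libraries. Per the submitters' processing notes, Trimmomatic 0.32, Bowtie2, MACS2, DiffBind and DESeq2 were used with builds hg19 and dm3; roles, order, pooling and any spike-in are not given in the sources used here. A change common to all windows therefore cannot be seen. The 2 input libraries were not analysed here. Columns carry letters, so a column was tied to its group and to no numbered sample; 0 columns had no group.

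The neighbourhoods, tests and lists were chosen with earlier results of these data known. The main test was the quasi-likelihood F-test of edgeR 4.0.16 (R 4.3.3): filterByExpr (minimum count 10, total 15) kept 41791 windows, TMM scaling, a robust quasi-likelihood fit of 4 groups, and Benjamini-Hochberg adjustment over all tested windows, called at 0.05. SE come from the F statistic. With 2 libraries per group, p-values rest mostly on the spread shared by all windows (median prior degrees of freedom 182). The same fit was run on counts summed in 1 Mb bins and in regions stitched within 12.5 kb. DESeq2 1.42.0, other scalings, no filter and leaving out each library were alternatives, as was a block on the column letters, added after seeing the data. The fit was tested on simulated counts for 24 h against DMSO. It recovered 39% of 100 windows changed by a fold of 1.5 and 73% of 100 changed by a fold of 2, with 18 false calls. A window without a call may therefore still have changed, and a called window may be a false call. Far fewer windows were changed in the simulation than were called at 24 h in the data. These shares need not carry over to the data. Total counts lie within peaks, so sequencing depth is unknown.

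Named windows are, per neighbourhood, up to 10 called windows by smallest p at 24 h, those nearest the gene positions or the limits, the highest level and the largest upward change. Others are marked in the text, except RERE window 2 and CAMK2N1 windows 4 and 6, which were also given with their values known. Hg19 gene positions are approximate, and whether starts count from 0 or 1 is not stated.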

Additional observations from a re-analysis of the deposited data

Results flagged for a closer look

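In these windows the change against DMSO differed between time points in a direct comparison of the treated groups (edgeR, adjusted p under 0.05), which reuses libraries that led to the choice of members; no group of 2 libraries could be examined for outlying libraries. Between 24 h and 4 h the log2 difference was -0.83 in RERE window 7, -0.51 in RERE window 9, -0.58 in RERE window 13, -0.56 in CAMK2N1 window 8 and -1.08 in CAMK2N1 window 17.

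Between 24 h and 2 h it was -0.88 in RERE window 7, -0.63 in RERE window 9 and -0.59 in RERE window 13. In the CAMK2N1 neighbourhood the differences between 24 h and 2 h were -0.77 in window 2, -0.65 in window 3, -0.51 in window 7, -0.69 in window 8, -0.49 in window 9, -0.77 in window 17 and -0.95 in window 22.

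The summed signal differed between 24 h and 4 h by -0.11 in the RERE neighbourhood. Between 24 h and 2 h it differed by -0.16 in the RERE neighbourhood and by -0.22 in the CAMK2N1 neighbourhood.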

How the results depend on the processing

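DESeq2 size factors, total counts and no filter left every count of lower or higher windows within 1.5 times its value, and no called value changed sign in any alternative. Of the 10 calls between 24 h and 2 h, 2 were lost with total counts and 1 with no filter. With DESeq2 size factors the CAMK2N1 sum between 24 h and 4 h was called (log2 change -0.10, adjusted p = 0.0483). The DESeq2 Wald test gave lower counts: 0 windows at 2 h, 0 at 4 h and 4 at 24 h in the RERE neighbourhood, 0, 1 and 6 in the CAMK2N1 neighbourhood, and 0 in both between 24 h and 4 h and between 24 h and 2 h. Leaving out each library in turn, the RERE neighbourhood held 1 to 2 lower windows at 2 h, 1 to 1 at 4 h, 6 to 10 at 24 h, 0 to 0 between 24 h and 4 h, and 1 to 2 between 24 h and 2 h. The CAMK2N1 neighbourhood held 0 to 2, 3 to 7, 8 to 10, 0 to 2 and 2 to 5. The RERE sum ranged from -0.10 to -0.07 at 2 h, where the call was lost without DMSO library A, DMSO library B or 2 h library B, and from -0.13 to -0.10 between 24 h and 4 h. Leaving out a library also leaves fewer libraries; no other cause of these shifts was tested. The share of stitched regions called lower at 24 h was 39.1% and 35.3% in the RERE and CAMK2N1 neighbourhoods. The columns carry letters where the labels carry replicate numbers, so a replicate block was fitted on the letters, an alternative chosen after seeing the data. Differences between libraries A and B correlated between groups by -0.033 to 0.054 over all windows. The labels do not say how A and B relate, and these values do not show whether libraries of the same letter were paired. The block gave 5 lower RERE windows between 24 h and 2 h, called the CAMK2N1 sum between 24 h and 4 h (-0.09, adjusted p = 0.0379), lost the call of CAMK2N1 window 17 between 24 h and 2 h (0.0583) and left every other count within 1.5 times. The median window held 48 to 69 counts per library, which limits the changes that 2 libraries per group can show.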
